A study of Homo sapiens with 72 samples.

Results

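The comparison described here sets the mature miRNAs of wild-type DU145 against those of wild-type IGROV1. DU145 is an established prostate cancer line grown in EMEM, and IGROV1 is an established ovarian cancer line grown in RPMI. The members are the 8 wild-type small RNA libraries, 4 per line, of 36 small RNA libraries and 72 samples in the whole series, which was made to follow the loss of the terminal uridylyltransferases TUT4 and TUT7. Both groups are parental cells with intact TUT4 and TUT7. The labels give DU145 as LIN28A negative and IGROV1 as LIN28A positive, so line, tissue of origin, medium and LIN28A status cannot be told apart in any difference below. The DU145 libraries come from passages P157, P158, P159 and P160 and the IGROV1 libraries from passages P6, P7, P8 and P9, so a p-value measures the spread between passages of 1 line. One row was kept for each mature miRNA, the precursor row with the highest total, which left 2588 miRNAs. Of these, 1716 had a count in the 8 libraries and 661 passed the filter on low counts and were tested.

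An miRNA is cut from a hairpin precursor as a 5p or a 3p arm and is loaded into an Argonaute protein, where bases 2 to 8, the seed, choose most of its mRNA targets. miRNAs with one seed form a family, and hairpins that lie close together on a chromosome form a cluster that is often transcribed as 1 primary RNA. Cell lines keep part of the miRNA pattern of the tissue they came from. LIN28A, an RNA-binding protein of stem cells and some tumours, binds let-7 precursors and recruits TUT4 or TUT7, which add a uridine tail that blocks Dicer.

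The sequences that separate the lines are shown with their seeds in capitals. They are RefSeq mature sequences (GRCh38.p14), and 579 of the 661 tested miRNAs matched one by name. The first set holds the miR-302/miR-367 cluster, found almost only in IGROV1, with 3 miRNAs of the miR-17-92 cluster for comparison. The 4 miR-302 3p arms have a single seed, and their bases 2 to 7, AAGUGC, are bases 3 to 8 of miR-17-5p. miR-367-3p has the seed of miR-92a-3p.
miR-302a-3p: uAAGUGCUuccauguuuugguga
miR-302b-3p: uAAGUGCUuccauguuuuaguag
miR-302c-3p: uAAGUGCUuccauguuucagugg
miR-302d-3p: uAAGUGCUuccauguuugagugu
miR-367-3p: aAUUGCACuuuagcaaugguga
miR-17-5p: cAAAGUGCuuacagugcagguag
miR-20a-5p: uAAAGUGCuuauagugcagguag
miR-92a-3p: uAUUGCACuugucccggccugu

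The second set holds the 2 miRNAs that lead the libraries, miR-21-5p and miR-30a-5p, with miR-30c-5p and miR-30e-5p, which have the seed of miR-30a-5p.
miR-21-5p: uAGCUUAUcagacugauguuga
miR-30a-5p: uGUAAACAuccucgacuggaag
miR-30c-5p: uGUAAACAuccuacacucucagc
miR-30e-5p: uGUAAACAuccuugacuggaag

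The third set is the let-7/miR-98 family, the 9 members of which were all higher in DU145. Only let-7d-5p starts with a rather than u, and the seed is the same in all of them.
let-7a-5p: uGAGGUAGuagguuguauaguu
let-7b-5p: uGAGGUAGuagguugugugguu
let-7c-5p: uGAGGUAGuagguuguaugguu
let-7d-5p: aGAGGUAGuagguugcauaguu
let-7e-5p: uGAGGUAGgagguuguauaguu
let-7f-5p: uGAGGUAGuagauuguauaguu
let-7g-5p: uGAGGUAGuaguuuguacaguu
let-7i-5p: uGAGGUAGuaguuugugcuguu
miR-98-5p: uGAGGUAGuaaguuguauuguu

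The fourth set holds miRNAs with one seed that lay on opposite sides of the comparison: miR-23a and miR-23b, miR-27a and miR-27b, and miR-100 and its relatives miR-99a and miR-99b.
miR-23a-3p: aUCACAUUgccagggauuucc
miR-23b-3p: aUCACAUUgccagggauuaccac
miR-27a-3p: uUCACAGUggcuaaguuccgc
miR-27b-3p: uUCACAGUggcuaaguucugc
miR-100-5p: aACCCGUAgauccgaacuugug
miR-99a-5p: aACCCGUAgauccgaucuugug
miR-99b-5p: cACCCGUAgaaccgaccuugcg

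The last set holds other miRNAs with large differences: the miR-199/miR-214 and miR-143/miR-145 clusters of IGROV1, and miR-31, miR-155 and the miR-29 family of DU145.
miR-199a-5p: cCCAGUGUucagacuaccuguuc
miR-199a-3p: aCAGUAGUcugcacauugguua
miR-214-3p: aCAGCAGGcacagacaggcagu
miR-143-3p: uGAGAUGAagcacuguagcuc
miR-145-5p: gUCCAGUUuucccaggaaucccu
miR-31-5p: aGGCAAGAugcuggcauagcu
miR-155-5p: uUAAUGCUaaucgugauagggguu
miR-29a-3p: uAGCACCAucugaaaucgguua
miR-29b-3p: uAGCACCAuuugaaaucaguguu
miR-29c-3p: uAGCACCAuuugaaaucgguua

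The libraries were deep and each line gave 4 libraries of like composition. The DU145 libraries held 6313913 to 8747463 counted miRNA reads and the IGROV1 libraries 8841996 to 13279748. No pair of libraries of a line agreed within sampling noise, and between 576 and 592 miRNAs had 10 or more counts in a DU145 library against 627 to 699 in an IGROV1 library. The matched mRNA libraries were used to check the labels. LIN28A mRNA was at 0, 0, 0.45 and 0 CPM in DU145 and at 179, 252, 245 and 246 CPM in IGROV1, while LIN28B was near 0 in both. PAX8, a transcription factor of the Müllerian lineage, was at 0.85 ± 0.59 CPM in DU145 and 652 ± 51.0 CPM in IGROV1 (SD, n = 4), but WT1 and EMX2 were not above the filter in either line and MUC16, the CA125 antigen, was higher in DU145 (log2 fold change -3.40). Of the prostate markers reported here, KLK3 had no count in either line, and HOXB13 was at 0.051 CPM in DU145 and higher in IGROV1 (log2 fold change 6.58). EPCAM was found in both lines, and PTPRC, the pan-leukocyte marker, was at or near 0 in both.

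A single miRNA filled over 50% of every DU145 library. miR-21-5p, an abundant miRNA of many solid tumours that is encoded within VMP1, took 52.1%, 56.1%, 58.9% and 55.8% of the counted reads in the 4 DU145 libraries. In IGROV1 it took 20.05%, 20.05%, 21.4% and 22.9%. Counting error adds little to these shares, since the exact 95% binomial interval in DU145 replicate 1, the shallowest library, ran from 52.10% to 52.18%. The 2 lines did not overlap, and on the CPM scale miR-21-5p stood at 636224 ± 83901 in DU145 and 186394 ± 19508 in IGROV1 (SD, n = 4), a log2 fold change of -1.77 (SE 0.10, edgeR adjusted p = 4.62e-10).

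IGROV1 had 2 leading miRNAs. miR-30a-5p, encoded in an intron of the non-coding LINC00472 on chromosome 6, took 23.6%, 22.2%, 22.2% and 22.5% of the 4 IGROV1 libraries and 0.867% of the DU145 reads on average. It was the most abundant miRNA in 3 IGROV1 libraries, and miR-21-5p was the most abundant in the other 1. In DU145 the second miRNA was miR-23a-3p in every library, at 2.79% to 3.42% of the reads.

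The top 10 miRNAs of a library held 69.1%, 72.3%, 74.4% and 72.1% of its reads in DU145 and 66.1%, 64.4%, 65.3% and 66.1% in IGROV1. The groups did not overlap, and the mean difference was -6.51 percentage points (IGROV1 minus DU145, exact two-sided permutation p = 0.0286, the smallest that 4 against 4 allows). Without IGROV1 replicate 2 (-6.15 points) or replicate 3 (-6.44 points) the exact permutation p was 0.0571, or 2 of the 35 splits of 7 libraries, while the groups still did not overlap, so that this loss of the call says nothing about stability. The difference in the share narrowed with more miRNAs, from -10.4 points for the top 5 to -3.98 points for the top 20, each with that same exact p. In DU145 1 miRNA was enough to pass 50% of the reads, against 3 or 4 in IGROV1, and 39 to 44 miRNAs were needed to pass 90%, against 47 to 50. Ranked by mean share, the top 10 lists of the lines shared 3 miRNAs, miR-21-5p, miR-27b-3p and miR-26a-5p. In single libraries 7 miRNAs were in the top 10 of every DU145 library, 8 in that of every IGROV1 library, and only miR-21-5p in that of all 8.

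**Figure D1:**
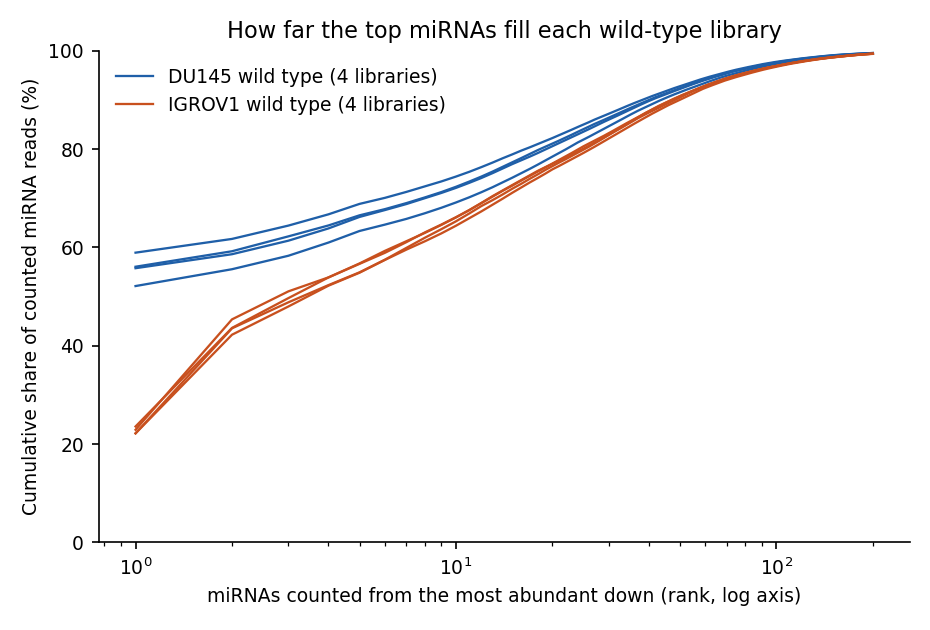
Cumulative share of the counted miRNA reads (percent, y axis) against the number of miRNAs counted from the most abundant down (log axis), with 1 line for each of the 4 DU145 (blue) and 4 IGROV1 (red) wild-type libraries. The DU145 curves start at 52.1% to 58.9% with miR-21-5p alone, the IGROV1 curves at 22.2% to 23.6%, and they draw together by the 20th miRNA.

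The rest of the DU145 top 10 by mean share were miR-23a-3p, miR-29a-3p, let-7a-5p, let-7f-5p, let-7i-5p, miR-27b-3p, miR-24-3p, miR-103a-3p and miR-26a-5p. The rest of the IGROV1 top 10 were miR-27b-3p, miR-30c-5p, miR-23b-3p, miR-26a-5p, miR-92a-3p, miR-302b-3p, miR-10a-5p and miR-30d-5p. The largest contrast of rank among these was that of miR-302b-3p, 8th in IGROV1 and 462nd in DU145. Of the 17 miRNAs in either list, miR-24-3p (log2 fold change -0.10, adjusted p = 0.377) and miR-103a-3p (0.19, adjusted p = 0.0178) did not pass the test by edgeR at a false discovery rate of 0.01, the threshold used throughout.

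Over all miRNAs tested, 439 of 661 (66.4%) differed between the lines by edgeR's quasi-likelihood test. Of these, 237 (35.9%) were higher in DU145 and 202 (30.6%) in IGROV1, and the median log2 fold change of all tested miRNAs was -0.08. That split depends on the scaling. With total-count scaling in place of TMM, the trimmed mean of M-values, 196 were higher in DU145 and 279 in IGROV1, and the median of all miRNAs stood at 0.28. With a filter of at least 10 CPM in 4 libraries, 153 were higher in DU145 and 146 in IGROV1. The shift between the 2 scalings was thus -0.36, and 116 of the 439 calls were under 2-fold. Of the 439, 129 (19.5% of those tested) were over 10-fold, 62 of them higher in DU145 and 67 in IGROV1. The groups of 4 did not overlap for 457 miRNAs (69.1%).

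**Figure D2:**
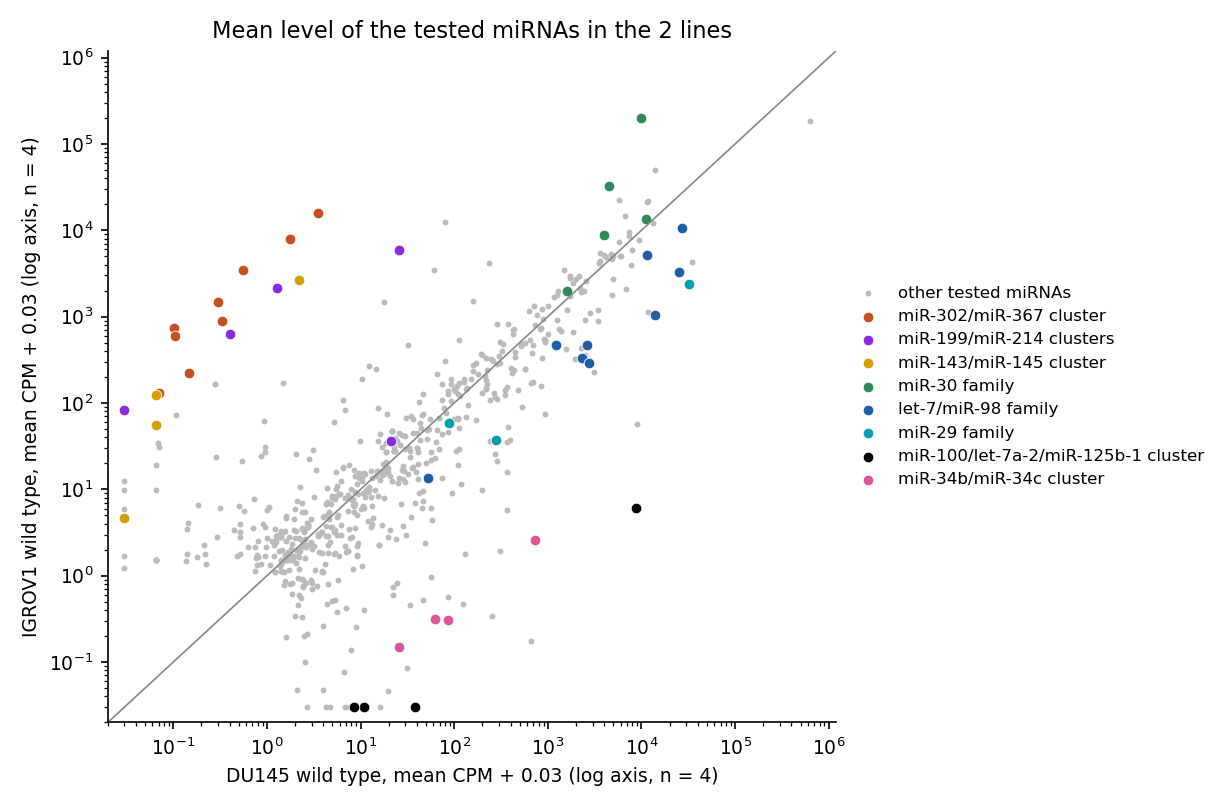
Mean CPM plus 0.03 of each of the 661 tested miRNAs in DU145 (x, log axis) and IGROV1 (y, log axis), n = 4 libraries each, with 8 lists in colour and the line of equal level in grey. The miR-302/miR-367 and miR-143/miR-145 points lie at the upper left, the miR-100/let-7a-2/miR-125b-1 and miR-34b/miR-34c points at the lower right, and the let-7/miR-98 points below the line throughout.

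The miR-302/miR-367 cluster gave the widest separation on the IGROV1 side. It is known from pluripotent stem cells and germ cell tumours, where it is among the most abundant miRNAs. The 5 hairpins lie at chr4:112647874-112648557 (GRCh38, minus strand), in an intron of LARP7 on the opposite strand and in the non-coding MIR302CHG. Of 10 arms, 9 passed the filter, with a median log2 fold change of 12.14 and a range of 10.80 to 13.04. Arms near 0 in a line, here and in the clusters given below as restricted to a line, passed the filter only through the other line, so their number and median describe them and test nothing. Summed over the cluster, DU145 libraries held 4.77 to 7.95 CPM and IGROV1 libraries 24500 to 36821 CPM, or 2.75% to 3.98% of the reads. The DU145 sum is so low that it rests on few counts per arm.

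miR-302b-3p led the cluster. It stood at 3.21, 3.22, 4.26 and 3.19 CPM in DU145 and at 12355, 14338, 17847 and 18592 CPM in IGROV1, without overlap (log2 fold change 12.14, SE 0.20, adjusted p = 2.92e-16). miR-302a-5p was second, at 1.75 ± 0.64 against 7929 ± 1544 CPM (SD, n = 4), followed by miR-302d-3p, at 0.52 ± 0.28 against 3433 ± 527 CPM. The arms with the fewest counts in DU145 are given as ratios. miR-302c-5p had 2 counts over the 4 DU145 libraries and 36289 over the IGROV1 libraries, a ratio of 9795 with an exact 95% counting interval of 2711 to 80882, and miR-302c-3p had 2 and 29312, a ratio of 7912 (2190 to 65332). miR-302d-5p had 1 and 6407, a ratio of 3459 (621 to 136630), and miR-302b-5p 3 and 10929, a ratio of 1967 (673 to 9538). The embryonic miR-371/miR-372/miR-373 cluster, with related seeds, was not expressed in either line: none of its 6 arms passed the filter, and none had over 3 counts in a line.

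The miR-143/miR-145 cluster and the miR-199/miR-214 clusters were likewise found almost only in IGROV1. These miRNAs are best known from smooth muscle cells and fibroblasts. The miR-143/miR-145 hairpins lie at chr5:149428918-149430733 (plus strand) in the non-coding CARMN, and miR-199a-2 and miR-214 at chr1:172138798-172144644 (minus strand) in DNM3OS, opposite to an intron of DNM3. All 4 miR-143/miR-145 arms were higher in IGROV1, with a median log2 fold change of 10.20. miR-143-3p stood at 2.25, 1.68, 2.56 and 2.12 CPM in DU145 and at 2745, 2295, 2536 and 3113 CPM in IGROV1, with no overlap (log2 fold change 10.27, SE 0.17, adjusted p = 2.92e-16). miR-145-5p had 1 count over the DU145 libraries and 6188 over the IGROV1 libraries, a ratio of 3340 (exact 95% counting interval 599 to 131961).

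All 6 tested arms of the miR-199/miR-214 list were higher in IGROV1, with a median log2 fold change of 9.26, or 8.68 with miR-214-5p, which had no count in DU145, at its lower bound. miR-199a-5p stood at 0.48, 0.98, 1.42 and 2.12 CPM in DU145 and at 2278, 2150, 1863 and 2301 CPM in IGROV1 (log2 fold change 10.72, adjusted p = 1.28e-15). miR-214-3p stood at 0.37 ± 0.081 against 632 ± 53.6 CPM (SD, n = 4), a log2 fold change of 10.69. miR-214-5p had no count in DU145 and 4089 in IGROV1, so it was at least 736-fold higher there, against a floor of 3 counts over the DU145 group. The smallest member was miR-199b-5p, at 21.2 against 36.4 CPM (log2 fold change 0.78). miR-199a-3p and miR-199b-3p have the same sequence and the same counts, 25.8 against 5881 CPM, so that 1 set of reads stands under both names.

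The 4 miR-143/miR-145 arms, miR-199a-5p, miR-199a-3p and miR-214-3p make up the fibroblast and smooth muscle marker list. Of these, 7 of 7 were higher in IGROV1, beside 30.6% of all miRNAs tested. They summed to 25.8 to 35.5 CPM in DU145 and 11017 to 12666 CPM in IGROV1. The arms are those given above, and those near 0 in DU145 passed the filter only through IGROV1, so their number tests nothing. In the mRNA libraries the fibroblast markers were low in both lines. COL1A1 stood at 4.77 CPM in DU145 and was higher in IGROV1 (log2 fold change 1.498), and PDGFRB did not pass the filter, with at most 1.09 CPM in any library. Whether other cells had a part in the difference was not tested.

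The miR-30 family took a far larger share of the reads in IGROV1, 29.0% ± 1.24 against 2.73% ± 0.31 in DU145 (SD, n = 4). Its 5 members together took 2.84%, 2.91%, 2.26% and 2.91% of the reads in DU145 and 30.7%, 29.2%, 28.4% and 27.9% in IGROV1. Of the 5, 4 were higher in IGROV1, with a median log2 fold change of 1.13, and most of the difference lay in 2 members. With upper-quartile scaling, or with a block for the replicate number, 3 of the 5 were called. With counts from the isomiR files all 5 were called, with a median of 2.79, and miR-30d-5p stood at 2.96 in place of 0.29. The cause was not tested. miR-30a-5p stood at 8786, 10968, 7765 and 11698 CPM in DU145 and at 209927, 187070, 190853 and 209813 CPM in IGROV1, a 20.3-fold difference (log2 fold change 4.35, SE 0.13, adjusted p = 1.44e-13). miR-30c-5p stood at 4466 ± 233 against 32169 ± 5366 CPM (SD, n = 4; log2 fold change 2.85). Those 2 share LINC00472: miR-30c-2 lies in it at chr6:71376960-71377031 and miR-30a at chr6:71403551-71403621, both on the minus strand, although miR-30c-5p is also made from a locus on chromosome 1. miR-30e-5p, from that chromosome 1 locus in NFYC, was 2.18-fold higher in IGROV1. miR-30d-5p (log2 fold change 0.29, adjusted p = 0.00235) moved by less than the shift between scalings, and miR-30b-5p (0.32, adjusted p = 0.0264) did not pass.

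The paired clusters of miR-23, miR-27 and miR-24 went in opposite directions. One copy, miR-23a/miR-27a/miR-24-2, lies at chr19:13836287-13836659 (minus strand) in the non-coding MIR23AHG, and the other, miR-23b/miR-27b/miR-24-1, at chr9:95085208-95086088 (plus strand) in AOPEP. All 5 tested arms of the chromosome 19 copy that can be told apart were higher in DU145, with a median log2 fold change of -3.35, and all 5 of the chromosome 9 copy were higher in IGROV1, with a median of 1.86 (4 of 5 and 1.39 with counts from the isomiR files). miR-23a-3p stood at 34691, 36725, 34696 and 32149 CPM in DU145 and at 4457, 4241, 4337 and 4301 CPM in IGROV1 (log2 fold change -2.995, adjusted p = 2.42e-14). miR-23b-3p stood at 5156, 5951, 6069 and 6125 CPM in DU145 and at 25384, 22235, 20656 and 20266 CPM in IGROV1 (log2 fold change 1.93, adjusted p = 4.77e-11). The 2 miRNAs have the same seed, and their sum changed less: the miR-23 family took 3.56% ± 0.29 of the reads in DU145 and 3.01% ± 0.31 in IGROV1 (SD, n = 4).

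miR-27a-3p was at 11618 ± 867 CPM in DU145 and 1139 ± 147 CPM in IGROV1 (SD, n = 4; log2 fold change -3.35), while miR-27b-3p was higher in IGROV1 at 50315 ± 4015 CPM, against 13900 ± 2523 CPM in DU145 (1.86). Together the miR-27 seed took 2.24% of the DU145 reads and 5.83% of the IGROV1 reads. miR-24-3p, which both clusters make and which cannot be assigned to either, was at 13169 ± 1311 CPM in DU145 and 12249 ± 1645 CPM in IGROV1, with a 95% interval of the log2 fold change from -0.33 to 0.12.

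The let-7/miR-98 family is abundant in differentiated cells and low in stem cells. It was higher in DU145 in 9 of 9 members (median log2 fold change -2.49, range -3.76 to -1.12), beside 35.9% of all miRNAs tested. Summed, it reached 84178 to 90794 CPM in DU145 and 20670 to 22371 CPM in IGROV1. As a share of the reads it took 8.31%, 7.26%, 7.31% and 7.83% of the DU145 libraries and 2.51%, 2.64%, 2.40% and 2.33% of the IGROV1 libraries, without overlap. The members differed unequally. let-7i-5p went from 14099 ± 896 to 1044 ± 89.5 CPM (SD, n = 4), a 13.5-fold difference (log2 fold change -3.76, SE 0.09, adjusted p = 2.00e-14), and let-7d-5p from 2772 ± 229 to 287 ± 36.1 CPM (-3.27).

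let-7f-5p stood at 23844, 24026, 26326 and 26390 CPM in DU145 and at 3345, 3469, 3195 and 3232 CPM in IGROV1 (log2 fold change -2.93). let-7a-5p, somewhat more abundant in DU145, differed less between the lines, at 27173, 25888, 28422 and 28159 CPM against 10556, 10569, 10317 and 11011 CPM (-1.37). let-7g-5p had the smallest difference, 11380 against 5242 CPM (-1.12, adjusted p = 5.43e-09). The intervals of the log2 fold changes of let-7a-5p (-1.52 to -1.22) and let-7i-5p (-3.96 to -3.55) lie apart. let-7a-5p made the largest part of the family in both lines but let-7g-5p took second place in IGROV1, where let-7f-5p held it in DU145. let-7a-5p and let-7f-5p each come from more than 1 locus, so their levels are sums over loci.

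**Figure D3:**
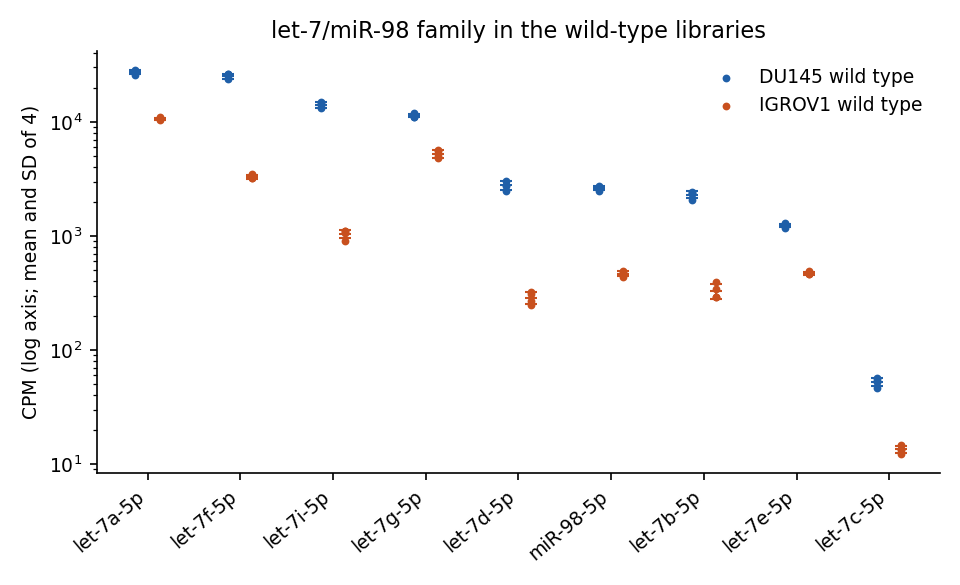
CPM (log axis) of the 9 let-7/miR-98 family members in each of the 4 DU145 (blue) and 4 IGROV1 (red) wild-type libraries, with the mean and SD of 4. All 9 are higher in DU145, with the widest gap at let-7i-5p (14099 against 1044 CPM) and the narrowest at let-7g-5p (11380 against 5242 CPM).

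The miR-100/let-7a-2/miR-125b-1 cluster gave the widest separation on the DU145 side. Its 3 hairpins are spread over chr11:122099757-122152308 (minus strand) in the non-coding MIR100HG. The 4 members, of which 3 passed the filter only through DU145, had a median log2 fold change of -10.08, or -8.41 with the 3 members that had no count in IGROV1 at their bounds. miR-100-5p stood at 9556, 9198, 8152 and 8044 CPM in DU145 and at 6.89, 7.81, 5.89 and 3.70 CPM in IGROV1 (log2 fold change -10.45, SE 0.20, adjusted p = 7.11e-16). The passenger arms miR-125b-1-3p, miR-100-3p and let-7a-2-3p had no count in the 4 IGROV1 libraries and 1035, 294 and 228 counts in DU145. They were at least 639-fold, 182-fold and 141-fold higher in DU145, against a floor of 3 counts over the IGROV1 group.

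miR-125b-5p, which comes from this cluster and from another on chromosome 21, stood at 3134 ± 366 CPM in DU145 and 230 ± 46.2 CPM in IGROV1 (SD, n = 4; log2 fold change -3.77). From the chromosome 21 cluster, miR-99a-5p went the other way, at 6.81 ± 0.27 against 83.2 ± 28.9 CPM (3.60), and let-7c-5p was higher in DU145 (-1.96). The third paralogous cluster, on chromosome 19, was closer to even. miR-99b-5p was 1.73-fold higher in IGROV1, let-7e-5p 2.62-fold higher in DU145, and miR-125a-5p did not pass the test (0.22, adjusted p = 0.0263). The shared seed of miR-100-5p, miR-99a-5p and miR-99b-5p took 0.93% of the DU145 reads and 0.35% of the IGROV1 reads.

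**Figure D4:**
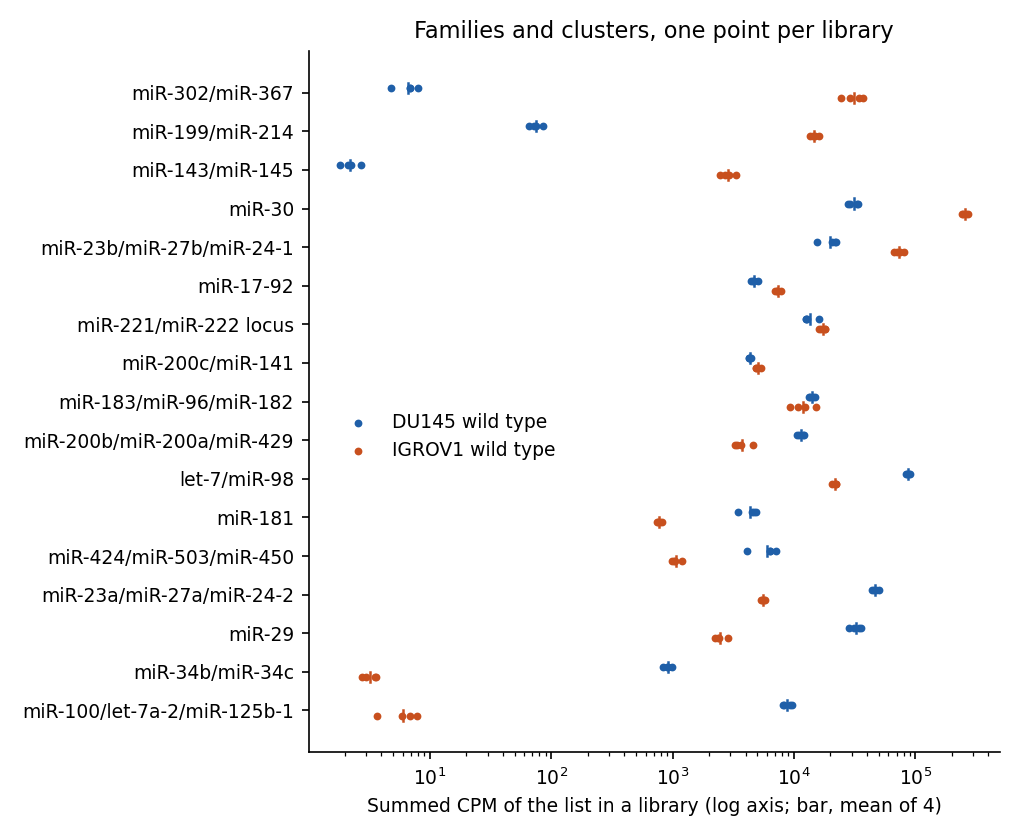
Summed CPM (log axis) of 17 families and clusters in each library, 4 DU145 (blue) and 4 IGROV1 (red), with a bar at the mean. The 2 lines lie apart by more than 100-fold for the miR-302/miR-367, miR-199/miR-214, miR-143/miR-145, miR-34b/miR-34c and miR-100/let-7a-2/miR-125b-1 lists, and overlap for the miR-183/miR-96/miR-182 and miR-221/miR-222 lists.

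Single miRNAs also marked DU145. miR-155-5p, known from activated lymphocytes and B-cell lymphoma, stood at 905, 628, 598 and 527 CPM in DU145 and had 8 counts in all over the IGROV1 libraries, a ratio of 4122 (exact 95% counting interval 2092 to 9550). miR-31-5p stood at 8009, 9549, 9558 and 8738 CPM in DU145 and at 53.8, 48.7, 59.6 and 68.1 CPM in IGROV1 (log2 fold change -7.29, SE 0.13, adjusted p = 7.07e-16). It made up 0.788% of the DU145 reads. miR-130a-3p had 16 counts over the IGROV1 libraries against 254 ± 17.99 CPM in DU145, a ratio of 794 (489 to 1390), while its relatives differed less. miR-130b-3p and miR-301a-3p were both 1.48-fold higher in IGROV1, miR-301b-3p was 2.58-fold higher there at only 3.13 against 8.11 CPM, and miR-454-3p was 1.34-fold higher in DU145.

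The miR-34 family, which p53 induces, was divided by locus. All 4 arms of the miR-34b/miR-34c cluster (chr11:111512938-111513515, plus strand) were higher in DU145, with a median log2 fold change of -7.99. Over the IGROV1 libraries miR-34b-3p, miR-34b-5p and miR-34c-3p had 14, 13 and 7 counts, so they passed the filter only through DU145. The number and median of the arms thus describe the cluster and test nothing. miR-34c-5p stood at 724, 807, 675 and 747 CPM in DU145 and at 2.94, 2.98, 1.66 and 2.54 CPM in IGROV1 (-8.16, adjusted p = 1.28e-15). miR-34a-5p, from chromosome 1, was higher in IGROV1, at 113, 143, 150 and 221 CPM in DU145 against 1380, 1573, 1563 and 1568 CPM (3.28, adjusted p = 9.54e-11). None of the 8 libraries broke either pattern.

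The miRNAs that lie within the HOX gene clusters were also divided between the lines. Of 8 tested, 4 were higher in DU145, the arms of miR-196a, miR-196b and miR-615, and 4 in IGROV1, the arms of miR-10a and miR-10b. Over all miRNAs tested the shares were 35.9% and 30.6%. miR-196b-5p stood at 310 ± 9.97 against 1.92 ± 0.19 CPM (SD, n = 4; log2 fold change -7.31), miR-196a-5p at 365 ± 28.7 against 15.7 ± 1.99 CPM (-4.54) and miR-615-3p at 365 ± 17.996 against 5.74 ± 1.71 CPM (-6.01). miR-10b-5p stood at 73.7, 85.1, 83.5 and 75.6 CPM in DU145 and at 13622, 11377, 12978 and 12401 CPM in IGROV1 (7.31, adjusted p = 2.92e-16). miR-10a-5p, the abundant member in DU145, was 2.20-fold higher in IGROV1. It lies on chromosome 17. miR-196a-5p is made from loci on chromosomes 12 and 17 and cannot be assigned to either.

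Other miRNAs higher in IGROV1 lay outside these groups. miR-146a-5p, induced by NF-kB in immune cells, stood at 15.6, 15.4, 13.6 and 13.7 CPM in DU145 and at 408, 269, 179 and 143 CPM in IGROV1 (log2 fold change 4.10, adjusted p = 4.00e-09). Its family member miR-146b-5p went the other way, at 287 CPM in DU145 against 110 CPM in IGROV1 (-1.39). The family sums overlapped, at 165 to 382 CPM in DU145 and 262 to 517 CPM in IGROV1. miR-190a-5p and miR-486-5p, chosen after their values were seen, stood at 17.6 ± 2.94 against 1481 ± 167 CPM and at 61.4 ± 10.0 against 3424 ± 341 CPM (SD, n = 4). The endothelial marker miR-126 did not pass in either arm, while its host EGFL7 (log2 fold change 0.91) and the endothelial cadherin CDH5 (8.89) were higher in IGROV1 in the mRNA libraries. Of the other marker lists, 4 of 6 tested epithelial, 4 of 7 neural and 1 of 2 muscle miRNAs were higher in DU145, beside 35.9% of all miRNAs tested. In IGROV1 1 epithelial, 2 neural, 1 muscle and the single tested hepatic miRNA were higher, beside 30.6%.

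Other families were higher in DU145 in every tested member, beside 35.9% of all miRNAs tested. The miR-29 family, which represses collagen genes, was higher in 3 of 3 members and took 2.84% ± 0.15 of the DU145 reads against 0.279% ± 0.019 of the IGROV1 reads (SD, n = 4). Nearly all of it was miR-29a-3p, at 27792, 35333, 33696 and 31140 CPM in DU145 against 2303, 2290, 2161 and 2725 CPM in IGROV1 (log2 fold change -3.75). miR-29c-3p, from another chromosome, differed by 1.499-fold and was not called with total-count scaling. The miR-181 family was higher in 4 of 4 members (median -2.92), led by miR-181a-5p at 2277 ± 310 against 436 ± 29.3 CPM.

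The miR-424/miR-503/miR-450 cluster of the X chromosome, whose members slow the cell cycle, was higher in DU145 in 8 of 8 tested arms (median log2 fold change -2.21), led by miR-503-5p at 2478 ± 555 against 359 ± 17.9 CPM (SD, n = 4). The miR-193b/miR-365a cluster was higher in 4 of 4 arms (median -1.53). Further miRNAs with a difference over 10-fold were miR-147b, miR-129-5p, miR-29b-1-5p and miR-152-3p, with DU145 means of 123, 132, 197 and 289 CPM and IGROV1 means of 0.44, 1.74, 9.77 and 21.1 CPM.

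The miR-200 family, which keeps cells epithelial by repressing ZEB1 and ZEB2, was split by cluster. All 5 tested arms of miR-200b/miR-200a/miR-429 were higher in DU145 (median log2 fold change -1.69), beside 35.9% of all miRNAs tested. miR-200b-3p stood at 7228, 6887, 6674 and 6352 CPM in DU145 and at 2508, 2047, 1938 and 1905 CPM in IGROV1 (-1.69, adjusted p = 3.78e-10). Of the 4 arms of miR-200c/miR-141, in chr12:6963699-6964191 (plus strand), only miR-141-3p passed, at 113 ± 17.1 against 171 ± 47.6 CPM (0.59, adjusted p = 0.00574), and the median of that cluster, 0.22, changed sign with upper-quartile scaling, under which no arm was called. Without TMM, with DESeq2 and with counts from the isomiR files 2 of the 4 arms were called, both higher in IGROV1. miR-200c-3p was at 4217 ± 53.3 CPM in DU145 and 4851 ± 232 CPM in IGROV1 (0.20, adjusted p = 0.0195). In the mRNA libraries CDH1, the epithelial cadherin, stood at 74.2, 92.2, 88.6 and 80.1 CPM in DU145 and at 3.68, 3.95, 5.56 and 5.21 CPM in IGROV1, and KRT8 and KRT18 were also higher in DU145, whereas EPCAM was higher in IGROV1 (53.5 ± 8.14 against 78.8 ± 6.36 CPM, SD, n = 4).

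Of the 9 tested arms of the MYC-driven miR-17-92 cluster, 6 were higher in IGROV1, beside 30.6% of all miRNAs tested. The other 3 did not pass, and the median log2 fold change was 0.62. With upper-quartile scaling the cluster had 5 arms called. miR-92a-3p, its most abundant product and one that is also made from the X chromosome, was 1.83-fold higher in IGROV1. The 4 arms of the miR-221/miR-222 locus were each called higher in IGROV1, but by 0.32 to 0.54 on the log2 scale, which is near the shift between scalings, and the libraries of the 2 lines overlapped for miR-221-3p and miR-222-3p. With upper-quartile scaling none of the 4 was called, and their median was 0.12. With a block for the replicate number 2 of the 4 were called. Of the 13 tested arms within CLCN5 on the X chromosome, 8 were higher in IGROV1 (median 0.63) and 5 did not pass. Over all miRNAs tested, 30.6% were higher in IGROV1 and 66.4% were called in either direction. With upper-quartile scaling 6 of the 13 were called higher in IGROV1 and 1 in DU145. For the miR-183/miR-96/miR-182 cluster 2 of 6 arms were called, both higher in DU145, beside 35.9% of all miRNAs tested. With total-count scaling 0 of the 6 were called, and the median changed from -0.30 to 0.05. The 95% interval of miR-183-5p was -0.36 to 0.39.

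Both large imprinted clusters were low. Of 93 arms listed for the 14q32 DLK1-DIO3 region, 89 were in the table and only miR-369-3p passed the filter, at 3.83 against 1.11 CPM. Of 61 arms listed for the primate-specific chromosome 19 cluster, known from placenta, 7 passed, all through their IGROV1 counts, so that their direction was fixed by the filter. The cluster summed to 0.14 to 0.56 CPM in DU145 and 28.8 to 40.9 CPM in IGROV1. miR-522-3p, the highest of them, had no count in DU145 and 613 in IGROV1, at least 110-fold higher against a floor of 3 counts over the group. Several of these names have near-identical copies, so the reads may be split or shared between them. No arm of the miR-224/miR-452, Xq27.3 or leukocyte and erythroid lists passed the filter.

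Grouped by seed without regard to locus, 68 seeds had at least 2 tested members and 52 of them at least 2 that were called. In 18 of these every called member was higher in DU145, in 21 every called member was higher in IGROV1, and in 13 the called members went both ways. Members of a seed can share a locus or reads, so these counts are a description.

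The arms of a hairpin were also compared, since the ratio of 5p to 3p within a library does not depend on scaling. Over 184 hairpins with both arms tested, 23 (12.5%) differed in this ratio by limma at a false discovery rate of 0.01, 13 (7.07%) towards 3p in IGROV1 and 10 (5.43%) towards 5p. With 5 rather than 0.5 added to each count, 36 hairpins differed. With a block for the replicate number, although same-numbered libraries were not paired by their deviations, 11 differed. The 6 largest changes among hairpins with both arms at 10 CPM in a line were those of miR-199b, miR-548av, miR-548ah, miR-199a, miR-548ap and miR-100, and each carries a limit. The 3p arms of miR-199a and miR-199b are 1 sequence, the miR-548 hairpins belong to a large family of near-identical copies, and the 3p arm of miR-100 had no count in IGROV1. miR-424 and miR-671, chosen after their values were seen, are free of these limits. The log2 ratio of miR-424 was -0.49, -0.15, -0.15 and 0.12 in DU145 and 1.35, 1.11, 0.69 and 1.18 in IGROV1 (change 1.25, SE 0.19, adjusted p = 0.00175), and that of miR-671 was 0.93, 0.58, 0.69 and 0.67 against 2.18, 1.86, 1.79 and 1.80 (change 1.19).

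Host transcripts gave a second readout from separate poly(A)-selected libraries. Of 38 host genes listed, 32 were in the mRNA table and 23 passed the filter. At a false discovery rate of 0.01 by edgeR, 17 of the 23 differed, 6 higher in DU145 and 11 in IGROV1, beside 64.8% of all 14011 genes tested, 33.1% and 31.7% in the 2 directions. Among 35 pairs of a host and an miRNA with both tested, 21 had both called, 18 of them in the same direction and 3 in opposite directions. Several pairs share a host, so the pairs are not independent. MIR31HG, MIR100HG and DNM3OS, whose pairs went in the same direction, had 1 count in the lower line. They passed the filter only through the other line, which fixed their direction, so their pairs describe and do not test agreement.

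The 3 widest pairs were those of line-restricted miRNAs. MIR31HG stood at 10.3, 18.5, 22.6 and 11.9 CPM in DU145 and had 1 count over the 4 IGROV1 libraries (log2 fold change -9.39). MIR100HG stood at 2.89, 6.06, 4.14 and 1.496 CPM in DU145 and also had 1 count in IGROV1 (-7.29). DNM3OS, the host of miR-214 and miR-199a-2, had 1 count in DU145 and stood at 5.63, 9.82, 5.77 and 4.95 CPM in IGROV1 (7.56). MIR155HG did not pass the filter, at 0.93, 0.61, 0.54 and 0.35 CPM in DU145 and no count in IGROV1. MIR503HG and MIR22HG were higher in DU145 with miR-503-5p, miR-424-5p and miR-22-3p, and NFYC was higher in IGROV1 with miR-30e-5p.

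**Figure D5:**
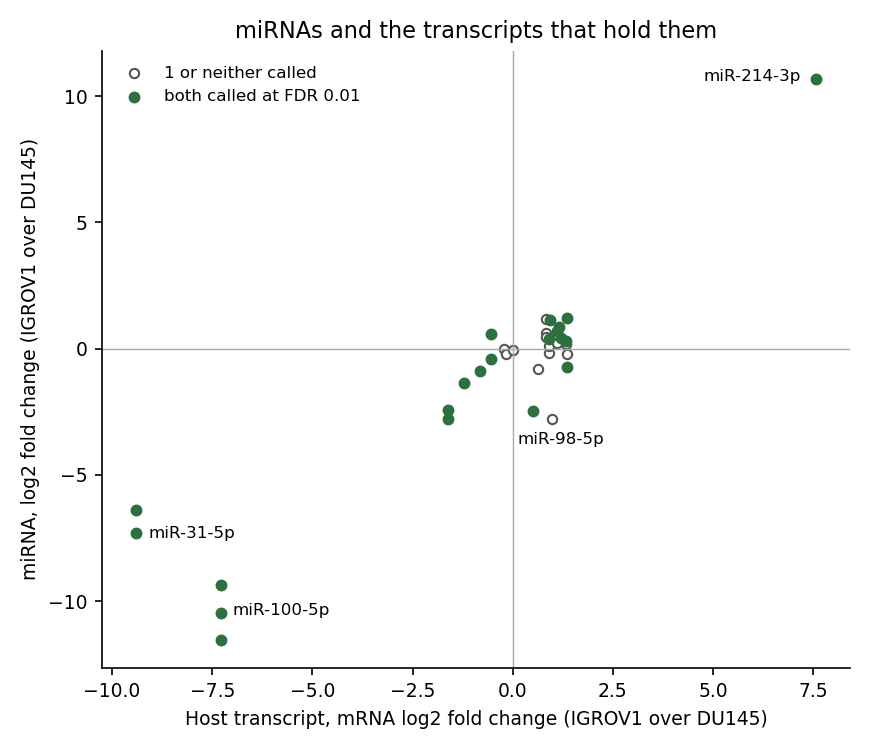
log2 fold change (IGROV1 over DU145) of the host transcript in the mRNA libraries (x) and of the miRNA in the small RNA libraries (y) for 35 pairs with both tested, filled where both were called at a false discovery rate of 0.01. miR-31-5p and miR-100-5p lie at the lower left and miR-214-3p at the upper right, and miR-98-5p is lower in IGROV1 while its host is higher.

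The 3 pairs in opposite directions were miR-98-5p with HUWE1, miR-335-3p with MEST and miR-301a-3p with SKA2. HUWE1 stood at 373, 478, 449 and 453 CPM in DU145 and at 572, 705, 637 and 583 CPM in IGROV1 (log2 fold change 0.51, adjusted p = 0.000778), while miR-98-5p from its intron went from 2624 ± 119 to 468 ± 26.3 CPM (SD, n = 4; -2.49). MIRLET7BHG, the host of let-7b, had a log2 fold change of 0.99 that did not pass (adjusted p = 0.0460), while let-7b-5p stood at 2302 ± 166 against 330 ± 49.3 CPM (-2.803). miR-335-3p had a log2 fold change of -0.74 and its host MEST one of 1.37.

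The same line contrast was made in the 16 TUT4/7 double mutant libraries, which share no sample with the wild-type ones. There the 2 mutant clones of each line, 4 libraries each, were compared. The 4 libraries of a clone are passages of it, so a p-value measures the spread within clones and not that between the 2 clones of a line. In that contrast 589 of 743 miRNAs tested (79.3%) differed, 301 (40.5%) higher in DU145 and 288 (38.8%) in IGROV1. Of the 439 miRNAs called in wild type, 428 were tested in the mutants, 372 were called in the same direction, 15 in the opposite direction and 41 were not called. Of the 48 with over 10-fold difference and 100 CPM in a wild-type line that were tested, 47 were called the same way.

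Some line-restricted miRNAs had other levels in the mutant clones, and no test was made of wild type against mutant here. miR-302b-3p, at 15783 CPM on average in wild-type IGROV1, was at 310 CPM in mutant clone 1 and 1611 CPM in clone 2, so that the line difference was 7.01 on the log2 scale. miR-143-3p was at 14.7 and 72.3 CPM in the IGROV1 clones against 2672 CPM in the wild type, and miR-199a-5p at 255 and 3860 CPM against 2148 CPM. miR-100-5p kept to DU145, at 14992 and 5427 CPM in the DU145 clones and at 6.54 and 7.57 CPM in the IGROV1 clones (-10.29). miR-200c-3p, close to even in wild type, was at 36.3 and 28.6 CPM in the IGROV1 clones and at 1730 and 4002 CPM in the DU145 clones (-6.35). The clones of a line differed among themselves, and clone and mutation cannot be told apart.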

How the data were processed

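Small RNA was sequenced with a kit that adds random bases to both adaptors. According to the study's methods, the authors trimmed adaptors with cutadapt, removed 4 random bases from each end and counted mature miRNAs with miRDeep2 against hg38. The methods describe these bases as molecular identifiers that let PCR duplicates be recognised. Whether duplicates were removed before counting, and the miRBase release, are not given in the sources used here, so intervals and floors cover counting error only. The deposited small RNA table holds raw counts, and only its count columns were tested. It also holds RPM columns that the authors' miRDeep2 run scaled to the sum of each library, which were not tested. Its columns cover all 36 small RNA libraries of the series, and no column belongs to a sample outside it. The authors' mRNA table holds counts from HTSeq after Trimmomatic 0.39 and HISAT2 2.1.0 (submitters' processing notes); the strand setting is not given in the sources used here. Between 22.7% and 27.5% of mRNA counts in these libraries stood in HTSeq's summary rows for reads not assigned to a gene and were left out.

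Names with several precursor rows kept the row with the highest total. Low counts were filtered with edgeR's filterByExpr, libraries were scaled by TMM, and lines were compared with edgeR's quasi-likelihood test and Benjamini-Hochberg adjustment at 0.01 (edgeR 4.0.16, R 4.3.3). CPM are TMM-scaled and fold changes are IGROV1 over DU145. Arm ratios used limma 3.58.1 on log2 values with 0.5 added to each count, and library shares an exact two-sided permutation test of the absolute difference over all splits. Exact intervals were computed with scipy 1.17.1. The procedures were tested on simulated data. Alternatives were DESeq2 1.42.0, other scalings and filters, a replicate block, summed precursors, counts from the isomiR files, and leaving out each library. Of the tested names, 15 share a mature sequence with another.

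The miRNAs named were the top 10 of either line, the 12 largest differences in each direction among those past the threshold with separate groups and 100 CPM in the higher line, and members of lists of families, clusters and cell type markers. The members and lists were chosen with earlier results of these data known. Replicate numbers are passages, and same-numbered libraries were not paired by their deviations. Some marker genes are not reported here.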

Additional observations from a re-analysis of the deposited data

Results flagged for a closer look

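In 11 of 228 groups of 4 libraries, 1 library stood far from the other 3 by Dixon's test, and chance alone flags about 1 in 20 groups. In DU145 replicate 1, miR-10a-5p was at 5875 CPM (others 6824 to 6992), miR-147b at 99.2 CPM (128 to 133), miR-29b-1-5p at 243 CPM (176 to 186) and miR-222-3p at 8674 CPM (6834 to 7076). In DU145 replicate 3, miR-302b-3p was at 4.26 CPM (3.19 to 3.22) and miR-29b-3p at 239 CPM (295 to 300), and in DU145 replicate 4 miR-99b-5p was at 1899 CPM (1638 to 1681). In IGROV1, miR-34a-5p was at 1380 CPM in replicate 1 (1563 to 1573), miR-10a-5p at 13462 CPM in replicate 2 (14833 to 15104), let-7i-5p at 911 CPM in replicate 3 (1071 to 1098) and miR-129-5p at 1.27 CPM in replicate 4 (1.84 to 1.94).

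The line difference of 2 named miRNAs had the opposite sign in the mutant libraries, and the difference between the contrasts was not tested. let-7c-5p had a log2 fold change of -1.96 in wild type and 0.85 in the mutants. miR-141-3p had 0.59 in wild type and -6.42 in the mutants.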

How the results depend on the processing

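Of 114 named miRNAs, 85 kept their call under every alternative run, among them all 47 called with over 10-fold difference. Some were named for large differences in these same libraries, so these counts describe the calls and do not test them. The count higher in DU145 was 153 with a filter of at least 10 CPM in 4 libraries, where fewer miRNAs were tested. Leaving out 1 library gave 230 to 246 miRNAs higher in DU145, 199 to 218 higher in IGROV1, 15 to 19 host genes and 16 to 21 hairpins. The top 10 share differed by -7.46 to -5.70 points without 1 library. Without IGROV1 replicate 2 (-6.15) or replicate 3 (-6.44) the exact permutation p was 0.0571, or 2 of 35 splits, with groups that still did not overlap, which says nothing about stability. Hairpins with a differing arm ratio numbered 36 with a pseudocount of 5. For counts in both directions, upper-quartile scaling gave 271 higher in DU145 and 164 in IGROV1, and DESeq2 gave 229 and 233. Medians of 7 of 47 lists changed sign between scalings, all of them at most 0.30 in size.

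The passage numbers did not pair the libraries: the correlations of same-numbered libraries' deviations were -0.08, 0.00, 0.10 and 0.12. With the replicate block, 233 miRNAs were higher in DU145 and 193 in IGROV1, 17 host genes were called, and hairpins fell to 11. The block also gave miR-183-5p a log2 fold change of -0.0322.

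The signs that reversed belong to miRNAs and hosts that were not called. The log2 fold change of miR-24-3p was 0.0115 with DESeq2 or its size factors, 0.00784 with all libraries in 1 fit, 0.261 without TMM, 0.0999 without a filter, 0.0209 from the isomiR files, and -0.131 to 0.00185 without 1 library. That of miR-148b-3p was 0.0820 with DESeq2 or its size factors, 0.0770 with all libraries in 1 fit, 0.0777 from the isomiR files, 0.320 without TMM, 0.172 without a filter, 0.0311 with the 10 CPM filter, 0.0556 without the top miRNA of each line, and -0.0579 to 0.0752 without 1 library. Upper-quartile scaling gave miR-103a-3p -0.0441, miR-200c-3p -0.0337, miR-125a-5p -0.0166, miR-93-5p -0.0322, miR-25-3p -0.0688, miR-363-3p -0.0203 and miR-183-5p -0.229, and miR-183-5p ranged from -0.167 to 0.196 without 1 library. Without TMM, miR-16-5p was at 0.0884 and miR-132-5p at 0.0486. COPZ1 mRNA was at -0.00250 with DESeq2, -0.0406 without TMM and -0.0342 to 0.113 without 1 library, and DLEU2 mRNA at -0.418 to 0.0796 without 1 library. The cause of these moves was not tested.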
